A study of Mus musculus with 12 samples.

Results

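The preovulatory follicle keeps its granulosa cells apart from the rest of the ovary behind a basement membrane. Granulosa cells (GCs) line the follicle, nurse the oocyte and answer the luteinizing hormone (LH) surge with a program of inflammatory, matrix and steroidogenic genes that ends in ovulation. Outside the membrane lie the steroid-making theca cells, fibroblasts, smooth muscle cells and the blood and lymph vessels. Before the LH surge healthy GC layers hold no blood vessels. The 2 compartments were compared here in ovaries that had received control IgG, across 13301 genes of the 17174 protein-coding genes and 23150 genes in all that the table holds. A gene was taken when it was protein coding and reached more than 1 TPM (a level per length of transcript, scaled to the same total in every library) in at least 1 of the 6 libraries.

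The 3 ovarian stromal tissue (OST) libraries and the 3 GC libraries came from the IgG-injected ovaries of wild-type C57BL/6J immature females that were superovulated, and both were collected 8 h after human chorionic gonadotropin (post-hCG), which stands in for LH. Each ovary had received 2 µg of protein in 10 µL, IgG here and semaphorin 3E (Sema3E) in the contralateral ovary, so both compartments carried the hormones, the injection and the IgG. GCs were released by needle puncture of the follicles, and OST was what remained of the punctured ovary, which can hold small follicles with their own GCs and oocytes. The 6 libraries of the Sema3E ovaries, again 3 of OST and 3 of GCs, were used only to set the same tissue difference beside the IgG one. No source ties a replicate number to a mouse, and the p-values measure the spread between these libraries.

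Libraries within a tissue were not alike. OST replicate 3 correlated with OST replicates 1 and 2 at r = 0.925 and 0.933 across genes, against 0.994 between those, and GC replicate 1 correlated with the other GC libraries at 0.945 and 0.953, against 0.989 between those. Summed over the LH-response list, OST replicate 3 had 484.3 TPM beside 5944 and 6058 TPM in the other OST libraries. Summed over the macrophage list, GC replicate 1 had 3264 TPM beside 238 and 268.5 TPM in the other GC libraries. The 4 globin genes took 0.261 to 0.633% of all TPM in OST libraries and 4.54 to 19.6% in GC libraries. The totals behind the TPM values are unknown, since TPM keeps no depth. Many of the results that rest on either library are given with and without it.

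In IgG ovaries 1513 genes were higher in OST and 41 were lower, at an adjusted p under 0.05 (limma on log2(TPM + 1), Benjamini-Hochberg adjustment over all 13301 genes), which is 11.4% and 0.308% of the genes tested. Genes whose 3 OST values all lay above the 3 GC values made up 43.7%, and genes whose OST values all lay below made up 4.74%. Of the called genes 304 were higher in OST by more than 2 on the log2 scale and 103 by more than 3. The split was not symmetric around 0. The median difference of all genes was 0.30 on the log2 scale, and rescaling each library by its median ratio to the others brought this median to -0.02 and the calls to 754 higher and 195 lower. With the globin and mitochondrial genes left out and TPM rescaled, 881 genes were higher and 117 lower. No called gene changed direction under median-ratio scaling, and 479 genes higher and 5 lower in OST were called in each of the 6 fits that left out 1 library. Calls over all genes also moved, to 885 higher and 52 lower without GC replicate 1 and 2163 and 95 without OST replicate 3. Without both they were 3366 and 558, and list counts from these fits are to be read beside those numbers. Throughout, a difference is the mean log2(TPM + 1) of OST minus that of GCs, so fold changes of weakly expressed genes come out too small.

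**Figure D1:**
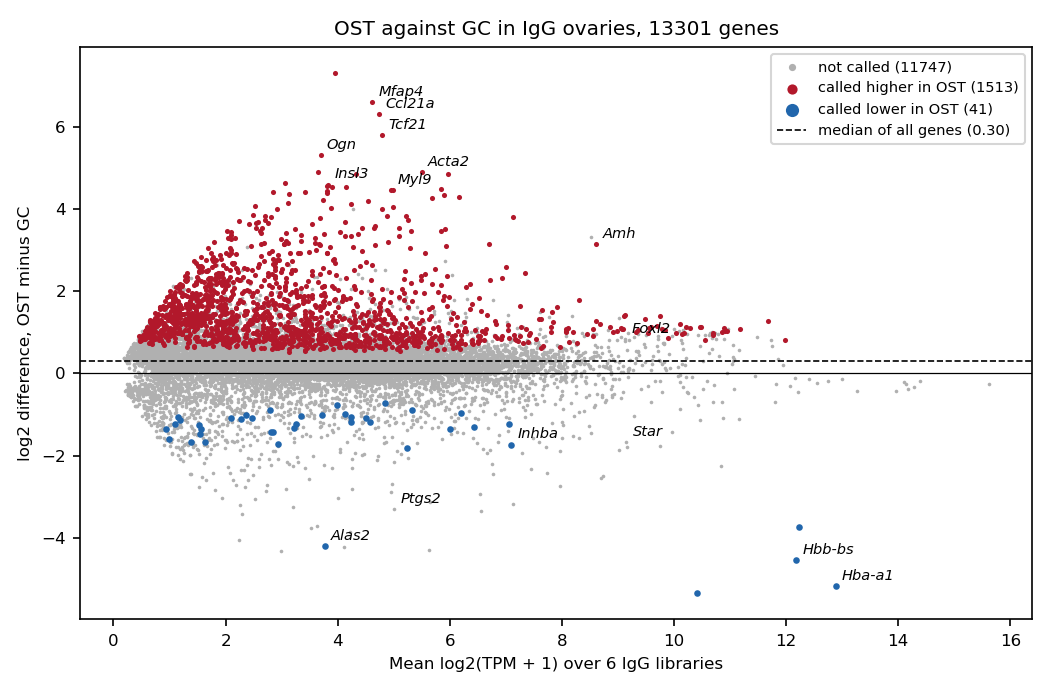
Each point is 1 of 13301 genes, with the mean log2(TPM + 1) over the 6 IgG libraries on the x axis and the log2 difference, OST minus GC, on the y axis. Red points are the 1513 genes called higher in OST and blue points the 41 called lower, and the dashed line is the median of all genes at 0.30, so the cloud as a whole sits above 0.

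The fibroblast list and the smooth muscle and pericyte list had the highest medians among the lists. All 17 tested members of the smooth muscle and pericyte list were higher in OST and none lower, with a median log2 difference of 2.93, and 16 of the 19 fibroblast and extracellular matrix genes were higher, with a median of 3.07, against 11.4% of all genes and a median of 0.30. Without GC replicate 1 the smooth muscle count was 12 of 17, at a median of 2.92, and Myl9, described with them, is not on the list but among the largest differences. In bulk libraries such as these, fewer cells of a type and less RNA per cell cannot be told apart.

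Acta2, the smooth muscle actin gene at chr19:34241090-34255590 (GRCm38, GENCODE M21 annotation), had 272, 284 and 193 TPM in OST, against 7.50, 9.82 and 5.27 TPM in GCs. Its groups were far apart, and the difference was 4.89 ± 0.25 (SE, limma adjusted p = 0.000308). Myl9, which encodes the regulatory light chain of smooth muscle myosin (chr2:156775420-156781658), was as even within a tissue, at 145, 136 and 152 TPM in OST, against 4.72, 5.58 and 6.61 TPM in GCs, a difference of 4.46 ± 0.16 (adjusted p = 9.38e-05). Myh11, the smooth muscle myosin heavy chain, was called at 3.43 ± 0.18 with 10.7 to 15.3 TPM in OST and 0.231 to 0.377 TPM in GCs. Rgs5, a pericyte marker, had 18.8, 15.7 and 6.43 TPM in OST, against 0.136, 0.474 and 0.0925 TPM in GCs. OST replicate 3 was the lowest of its group for Acta2, Myh11 and Rgs5, but not for Myl9.

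The promoters of Acta2 and Myl9 are shown because both genes were higher in OST and because contractile genes are known for CArG boxes, the sites that serum response factor binds. The stretches are the 200 bases before the RefSeq transcript start (GRCm38.p6), 5′ to 3′ on the strand of the gene. RefSeq and GENCODE M21 place these starts differently, so the Acta2 stretch and the end of the Myl9 stretch lie inside the gene coordinates given above, and distances are counted from the RefSeq start. Capitals mark each CC, 6 positions, GG match in which at most 1 of the 6 is not A or T, a relaxed form chosen after the strict form had been searched.
Acta2, chr19:34255374-34255573, minus strand: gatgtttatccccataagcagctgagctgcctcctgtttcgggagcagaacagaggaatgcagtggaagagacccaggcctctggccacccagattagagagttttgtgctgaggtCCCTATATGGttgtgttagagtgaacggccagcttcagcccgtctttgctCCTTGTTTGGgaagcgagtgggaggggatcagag
Myl9, chr2:156775264-156775463, plus strand: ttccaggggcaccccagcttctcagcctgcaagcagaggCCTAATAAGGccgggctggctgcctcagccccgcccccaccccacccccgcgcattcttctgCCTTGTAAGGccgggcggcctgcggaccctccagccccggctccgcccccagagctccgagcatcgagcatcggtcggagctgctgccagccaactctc
Myl9 held the strict form CCTAATAAGG, beginning 161 bases before the start, and the relaxed form CCTTGTAAGG at 99 bases. Acta2 held the relaxed forms CCCTATATGG at 84 bases and CCTTGTTTGG at 34 bases and no strict one in this window. CC, 6 positions, GG reads as itself on the other strand. Within 250 bases before the start the strict form was found in 1.47% and the relaxed form in 8.59% of the 32851 promoters in the table. Of the 12 smooth muscle list members with a promoter there, 0 held the strict form and 1 the relaxed form. These matches describe letters and not binding.

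Fibroblast and matrix genes held several of the largest differences. Mfap4, a microfibril-associated glycoprotein, had 185, 269 and 277 TPM in OST, against 0.910, 1.28 and 2.62 TPM in GCs, a difference of 6.59 ± 0.28 (adjusted p = 0.000173). Ogn, which encodes the small leucine-rich proteoglycan osteoglycin (chr13:49608046-49624501), had the smallest adjusted p of the fibroblast list, 8.39e-05, with 70.2, 78.1 and 94.4 TPM in OST and 0.972, 1.08 and 1.15 TPM in GCs. For both genes no OST value came near the GC values. Col1a1, a chain of type I collagen, had 598, 613 and 382 TPM in OST, against 52.3, 35.0 and 25.7 TPM in GCs, a difference of 3.81 ± 0.31. Dcn, decorin, differed by 3.14 ± 0.26, with 31.8 to 47.8 TPM in OST and 2.63 to 4.89 TPM in GCs. Pdgfra, the platelet-derived growth factor receptor of fibroblasts, had 30.4 to 53.7 TPM in OST and 0.695 to 1.08 TPM in GCs. Serpinf1, a secreted factor known to restrain vessel growth, differed by 4.89 ± 0.17 and stayed called in each leave-one-out fit, as did the other genes of this paragraph.

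Theca genes separated the compartments as well. Of 13 list members tested 10 were higher in OST and 0 were lower, with a median of 2.53, against 11.4% of all genes and a median of 0.30. The count was 8 higher without GC replicate 1 and 11 higher without OST replicate 3. Tcf21, a transcription factor of stromal progenitors, had 162, 225 and 233 TPM in OST, against 1.67, 4.13 and 2.74 TPM in GCs, a difference of 5.79 ± 0.27 (adjusted p = 0.000219). Nr2f2, a nuclear receptor of theca and stroma, differed by 2.20 ± 0.19. The androgen-producing enzyme gene Cyp17a1 had 120, 154 and 31.8 TPM in OST, against 1.26, 3.69 and 3.68 TPM in GCs. Its difference of 4.53 ± 0.64 was called in 5 of 6 leave-one-out fits, the exception being the one without OST replicate 1 (adjusted p = 0.0518). Insl3, the peptide hormone of theca cells, had 127, 118 and 21.0 TPM in OST, against 2.07, 3.08 and 0.924 TPM in GCs. For both genes OST replicate 3 was the lowest of its group and still above every GC library, and Insl3 was called in 2 of 6 leave-one-out fits, with an adjusted p of up to 0.0697. Insl3 lies within the Jak3 locus, and reads of overlapping genes cannot be told apart.

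**Figure D2:**
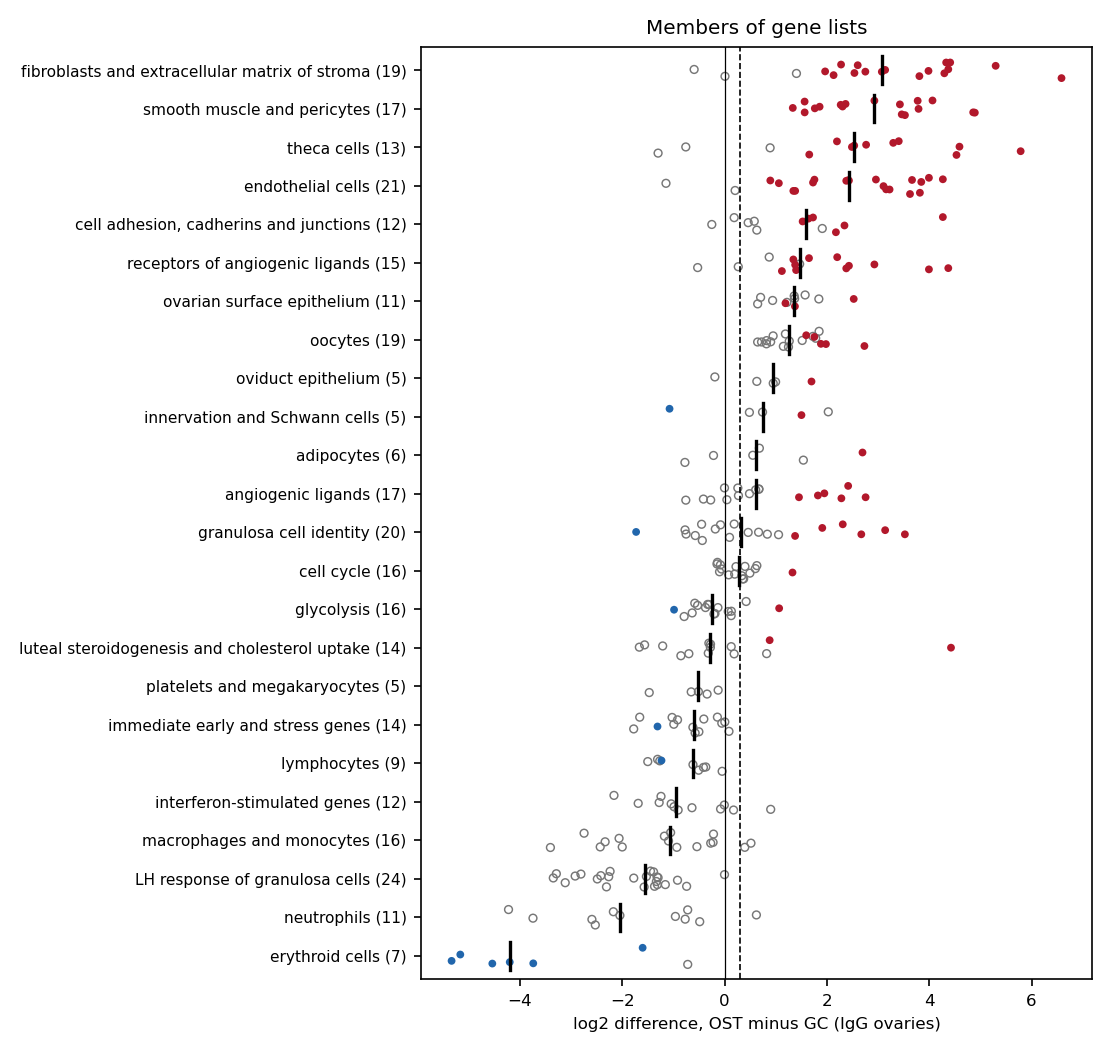
Each row is 1 gene list, with the number of members tested in brackets, and each point is 1 member's log2 difference, OST minus GC, in IgG ovaries. Filled points passed the test, red higher and blue lower, open points did not, the black bar is the list's median and the dashed line the median of all genes (0.30). Fibroblast, smooth muscle, theca and endothelial medians lie between 2.43 and 3.07, and the erythroid median lies at -4.20.

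Endothelial genes followed the stroma. Of 21 members tested 19 were higher in OST and 0 were lower, against 11.4% and 0.308% of all genes, with a median of 2.43. Without GC replicate 1, 13 of 21 were called. Tie1, an endothelial receptor, had 31.3, 26.7 and 15.5 TPM in OST, against 0.535, 1.501 and 0.370 TPM in GCs, a difference of 3.82 ± 0.33 (adjusted p = 0.00123). Sox17 and Sox18, transcription factors of vessels, differed by 3.66 ± 0.27 and 3.16 ± 0.21. Cldn5, a claudin of endothelial tight junctions, had 290, 193 and 202 TPM in OST, against 10.2, 16.6 and 7.07 TPM in GCs. Pecam1, the junction protein CD31, had 10.9, 10.3 and 4.11 TPM in OST, against 0.949, 0.822 and 0.287 TPM in GCs, a difference of 2.41 ± 0.36 (adjusted p = 0.00930). OST replicate 3 was the lowest OST library for Tie1 and Pecam1 but not for Cldn5, and all 5 genes kept non-overlapping groups. Cdh5, the vascular cadherin, showed the smaller difference of 1.73 ± 0.30, since GCs held 5.52 to 7.87 TPM of it beside 14.4 to 30.0 TPM in OST. It was called in 4 of 6 leave-one-out fits, and not without GC replicate 1 (adjusted p = 0.0703) or GC replicate 3, nor under median-ratio scaling (adjusted p = 0.0643).

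Among receptors of angiogenic ligands 11 of 15 were higher in OST and 0 lower, against 11.4% and 0.308% of all genes. The median was 1.47, and 7 of 15 were higher both under median-ratio scaling and without GC replicate 1. The list shares members with the endothelial and fibroblast lists. Plxnd1, the receptor of Sema3E (chr6:115954811-115995005), had 47.8, 37.9 and 23.2 TPM in OST, against 9.39, 12.5 and 9.59 TPM in GCs. The groups did not overlap, and the difference of 1.65 ± 0.27 was called (adjusted p = 0.0129). It was called in 4 of 6 leave-one-out fits, with adjusted p = 0.000716 without OST replicate 3 and 0.0629 without GC replicate 1, and it missed the threshold under median-ratio scaling (adjusted p = 0.0607). Kdr, the main receptor of VEGFA on endothelial cells, differed by 2.38 ± 0.40, with 22.7, 20.7 and 8.25 TPM in OST and 2.11, 3.24 and 1.57 TPM in GCs, and was not called without GC replicate 1 (adjusted p = 0.0638) or GC replicate 3. Nrp2, a neuropilin coreceptor of lymphatic vessels, was the steadier of the neuropilins, at 5.49, 5.89 and 6.75 TPM in OST and 0.804, 0.535 and 0.287 TPM in GCs, a difference of 2.20 ± 0.19. Nrp1, its homolog, differed by 1.40 ± 0.25 and was called in 2 of 6 leave-one-out fits (adjusted p up to 0.0658).

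The ligands were less one-sided, with 6 of 17 higher in OST, against 11.4% of all genes, 0 lower and a median of 0.61. Without GC replicate 1 the count was 3 higher with a median of 0.36, and under median-ratio scaling it was 3 higher and 1 lower. Pdgfb, the ligand that recruits pericytes, had 24.4, 24.9 and 38.9 TPM in OST, against 4.58, 4.65 and 4.50 TPM in GCs, a difference of 2.42 ± 0.20. Angpt2, the angiopoietin that loosens vessels, had 5.11, 7.62 and 5.77 TPM in OST and 0.865, 1.17 and 0.527 TPM in GCs, and Fgf2 differed by 1.82 ± 0.28. Those 3 stayed called in each leave-one-out fit. Vegfa, the main vessel growth factor, had 130, 87.4 and 54.6 TPM in OST, against 95.8, 117 and 98.5 TPM in GCs, and its groups overlapped (-0.27 ± 0.31, adjusted p = 0.540). Sema3e itself stayed under 1 TPM in all 6 IgG libraries and was therefore not tested. It had 0.349, 0.329 and 0.199 TPM in OST, against 0.950, 0.867 and 0.459 TPM in GCs, so the 3 GC values lay above the 3 OST values.

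**Figure D3:**
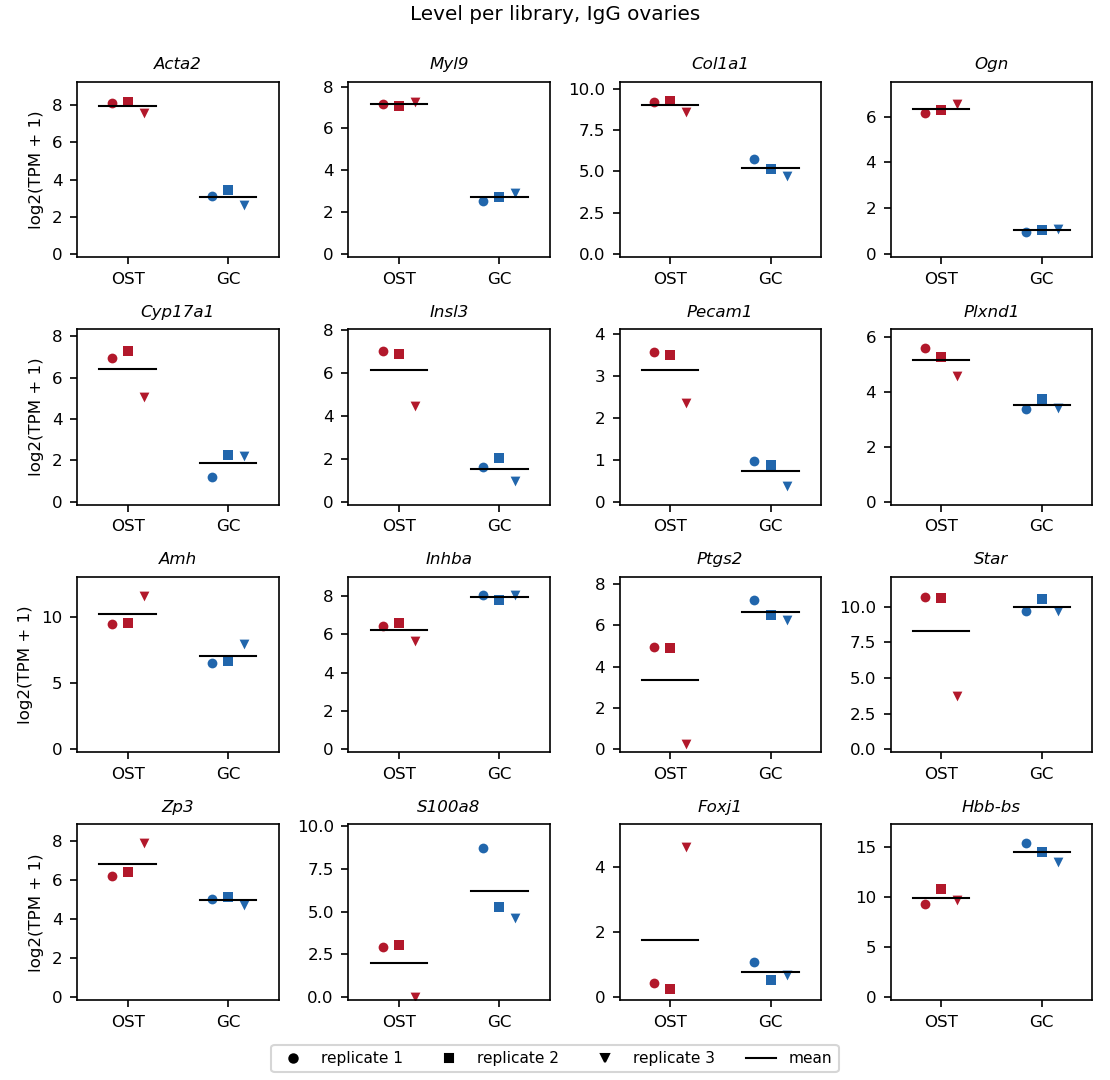
Level of 16 genes in each IgG library as log2(TPM + 1), with OST on the left and GC on the right of each panel, 1 point per library and a bar at the group mean. The OST and GC points stay apart for Acta2, Myl9, Ogn and Hbb-bs, while the triangle of OST replicate 3 drops to 0.194 TPM for Ptgs2 and 12.1 TPM for Star and stands alone at 23.4 TPM for Foxj1.

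As a list, granulosa markers did not set the GC libraries of IgG ovaries apart from OST. Summed over the granulosa identity list, OST had 8845, 8794 and 16200 TPM, against 7538, 10130 and 15060 TPM in GCs, so the groups overlapped. Foxl2, the transcription factor that defines granulosa identity, had 694, 669 and 893 TPM in OST, against 287, 433 and 586 TPM in GCs, so it was above the GC values in each OST library although the difference of 0.83 ± 0.29 was not called (adjusted p = 0.103). Over the list 6 of 20 members were higher in OST and 1 was lower, against 11.4% and 0.308% of all genes, and the median was 0.32. The counts were 2 higher and 1 lower without GC replicate 1 and 6 and 4 without OST replicate 3. Under median-ratio scaling they were 4 and 3 with a median of -0.04, and without both libraries 6 and 5 with a median of -0.07. Over all 13301 genes they were 754 and 195 under that scaling and 3366 and 558 without both libraries. The members higher in OST included Amh, the anti-Müllerian hormone of small growing follicles, with 707, 722 and 3073 TPM in OST, against 92.6, 98.0 and 248 TPM in GCs. That gene was called (3.14 ± 0.69, adjusted p = 0.0370) in 1 of 6 leave-one-out fits, the one without OST replicate 3. Kctd14 had 76.1, 69.6 and 280 TPM in OST, against 7.77, 7.30 and 12.8 TPM in GCs (3.52 ± 0.56), and Kitl, the kit ligand that GCs send to the oocyte, had 9.99, 9.50 and 11.5 TPM in OST and 3.53, 3.34 and 3.18 TPM in GCs (1.38 ± 0.14, adjusted p = 0.00233). Kctd14 was not called without GC replicate 1 (adjusted p = 0.0577) or GC replicate 2.

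Inhba, the βA subunit of activins and inhibin A (chr13:16011851-16031621), was the granulosa list member called lower in OST with all libraries. It had 86.0, 94.6 and 49.6 TPM in OST, against 262, 218 and 267 TPM in GCs, a difference of -1.73 ± 0.27 (adjusted p = 0.00971). OST held less of it in each library, and it was 1 of the 5 genes called lower in all leave-one-out fits. The others were Hba-a1, Hbb-bs, Il23a and Slfn14. Il23a, a cytokine subunit, had 4.47, 3.16 and 2.79 TPM in OST and 9.26, 11.2 and 11.9 TPM in GCs. Slfn14, an endoribonuclease, had 3.65, 4.09 and 2.40 TPM in OST and 9.64, 9.76 and 12.3 TPM in GCs. Fshr, the receptor of follicle-stimulating hormone, had 0.962 to 1.302 TPM in OST and 1.17 to 2.97 TPM in GCs, and Cyp19a1, aromatase, had 0.326 to 0.881 TPM in OST and 1.59 to 2.24 TPM in GCs, and neither was called with all libraries. Cyp19a1 was called lower without OST replicate 3 (adjusted p = 0.0400) and under median-ratio scaling (adjusted p = 0.0430).

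LH-response genes were at lower values in OST without passing the test. Of 24 members tested 0 were called in either direction, all 24 had a negative difference, the median was -1.55 and 14 had OST values wholly below the GC values, against 4.74% of all genes. Without OST replicate 3 the list had 10 members called lower and a median of -0.78, and without that library and GC replicate 1 it had 12 lower, 1 higher and a median of -0.82. Over all 13301 genes those fits called 95 and 558 lower. Ptgs2, the prostaglandin synthase that LH induces, had 29.9, 28.3 and 0.194 TPM in OST, against 149, 88.0 and 74.8 TPM in GCs. Its difference was -3.29 ± 1.28 (adjusted p = 0.138) with all libraries and -1.74 (adjusted p = 0.00835) without OST replicate 3. Tnfaip6, a matrix protein of the expanding cumulus, had 15.2, 17.6 and 0.238 TPM in OST and 68.5, 42.3 and 41.9 TPM in GCs, and its adjusted p moved in the same way, at 0.129 with and 0.00631 without OST replicate 3.

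The EGF-like factors that pass on the LH signal differed among themselves. Btc had 6.79, 7.77 and 0.590 TPM in OST, against 27.2, 18.2 and 23.4 TPM in GCs, and was called only without OST replicate 3 among the leave-one-out fits (-1.52, adjusted p = 0.00254). Areg had 2.77, 4.21 and 0.0718 TPM in OST and 33.1, 5.26 and 9.99 TPM in GCs (adjusted p = 0.120). Ereg had 53.5, 60.3 and 0.250 TPM in OST and 72.0, 34.4 and 24.2 TPM in GCs, so its groups overlapped and its difference was -1.32 ± 1.53 with all libraries and 0.52 without OST replicate 3, called in neither. Cebpa and Cebpb encode transcription factors that the LH surge engages in GCs. Cebpa had 309, 278 and 58.4 TPM in OST, against 496, 496 and 500 TPM in GCs, and Cebpb had 2279, 2731 and 96.4 TPM in OST, against 3204, 4056 and 4915 TPM in GCs. Cebpb was abundant in OST replicates 1 and 2, and both genes lay below the GC values in all OST libraries. Neither was called with all libraries (adjusted p = 0.156 and 0.258), and without OST replicate 3 Cebpa was (adjusted p = 0.0202).

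Steroidogenic genes likewise had their lowest values in OST replicate 3. Over 14 luteal and cholesterol genes 2 were higher in OST and 0 lower at a median of -0.29, a share near the 11.4% of all genes, and without OST replicate 3 the count was 5 higher and the median 0.69. Star, which carries cholesterol into mitochondria, had 1599, 1535 and 12.1 TPM in OST, against 845, 1474 and 825 TPM in GCs. Cyp11a1, the side-chain cleavage enzyme that begins steroid synthesis, had 1929, 1197 and 32.4 TPM in OST, against 345, 730 and 578 TPM in GCs, and its difference was -0.31 ± 1.51 with all libraries and 1.53 (adjusted p = 0.0412) without OST replicate 3. The 2 called members were Stc1, the hormone stanniocalcin of theca and interstitial cells, and Srd5a1, steroid 5-alpha-reductase. Stc1 had 78.1, 86.6 and 37.9 TPM in OST, against 2.13, 2.15 and 1.76 TPM in GCs, a difference of 4.43 ± 0.31 (adjusted p = 0.000581). Srd5a1 differed by 0.88 ± 0.17 and was called in 3 of 6 leave-one-out fits (adjusted p up to 0.100).

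**Figure D4:**
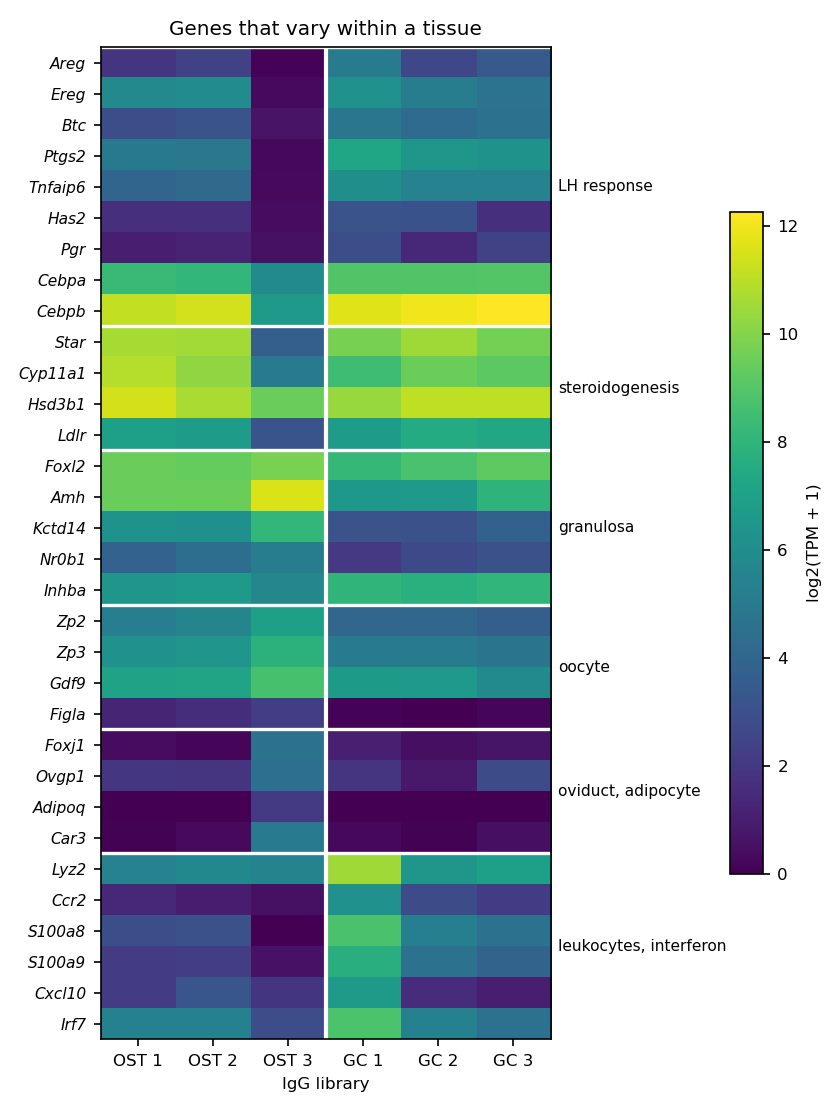
Colour gives log2(TPM + 1) of 32 genes in rows for the 6 IgG libraries in columns, OST left of the white line and GC right of it. OST 3 is dark for LH-response genes (Ptgs2 at 0.194 TPM) and steroidogenic genes and bright for Amh (3073 TPM), oocyte genes and Foxj1 (23.4 TPM), while GC 1 is bright for Lyz2 (1482 TPM) and S100a8 (430 TPM).

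Oocyte genes were measured in both compartments. All 19 had a positive difference, 5 were called higher, against 11.4% of all genes, and the median was 1.26, or 0.74 with 11 called without OST replicate 3, whose summed TPM over the list was 2192 beside 691 and 787 in the other OST libraries and 273 to 471 in GC libraries. Without GC replicate 1, 1 was called, and under median-ratio scaling 2 were. Over all 13301 genes 2163 were called higher without OST replicate 3, 885 without GC replicate 1 and 754 under median-ratio scaling. Sohlh1 and Figla, transcription factors of oocytes in primordial and growing follicles, were the members nearest to an on and off pattern. Sohlh1 had 3.83, 7.52 and 7.31 TPM in OST, against 0.0495, 0 and 0.110 TPM in GCs (2.73 ± 0.26, adjusted p = 0.00150), and Figla had 1.41, 2.00 and 3.75 TPM in OST, against 0.0872, 0 and 0.145 TPM in GCs (adjusted p = 0.0153, or 0.0582 without GC replicate 1). Zp3, a zona pellucida glycoprotein, had 72.1, 84.4 and 236 TPM in OST and 31.7, 33.4 and 25.3 TPM in GCs, and was called (adjusted p = 0.0456) in 2 of 6 leave-one-out fits. Gdf9, the oocyte growth factor that acts on GCs, had 132, 143 and 410 TPM in OST and 102, 99.4 and 56.0 TPM in GCs and was not called (adjusted p = 0.139).

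Of other tissues that a dissected ovary can carry, lists of surface epithelium, oviduct and adipocyte genes were measured. The surface epithelium list had 3 of 11 members higher in OST, against 11.4% of all genes, and 0 lower. The count was 5 without GC replicate 1, where 885 of all 13301 genes were called higher, and 1 under median-ratio scaling, where 754 were. It was 9 without GC replicate 1 and OST replicate 3, where 3366 were. The list was led by Upk3b, a uroplakin of mesothelium. That gene had 49.7, 35.0 and 56.0 TPM in OST, against 11.2, 4.44 and 7.23 TPM in GCs (2.52 ± 0.32, adjusted p = 0.00509). Foxj1, the regulator of motile cilia in oviduct epithelium, had 0.347, 0.171 and 23.4 TPM in OST and 1.12, 0.436 and 0.595 TPM in GCs. Adipoq, the adipocyte hormone adiponectin, was listed at 0, 0 and 3.23 TPM in OST and at 0, 0.0297 and 0 TPM in GCs. Car3, another adipocyte list member, had 0.0603, 0.223 and 33.2 TPM in OST and 0.210, 0.0379 and 0.439 TPM in GCs. All of these genes were highest in OST replicate 3. Without that library the median difference moved from 0.95 to 0.10 for the oviduct list and from 0.62 to -0.08 for the adipocyte list. The summed TPM of the lists was not high in that library alone. Summed TPM over the oviduct list was 24.25, 20.63 and 96.35 in OST, against 75.43, 14.03 and 23.80 in GCs, and over the adipocyte list 63.6, 63.6 and 113.0 in OST, against 65.9, 105.9 and 98.5 in GCs. Their part in the differences of other genes was not tested. Plin1, the lipid droplet coat gene, was the called adipocyte member, at 4.89, 4.14 and 10.3 TPM in OST and 0.0498, 0.135 and 0.0918 TPM in GCs, so it was well above the GC values in all OST libraries.

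Blood transcripts were the lowest in OST relative to GCs. Of 7 erythroid genes 6 were lower in OST and 0 higher, against 0.308% and 11.4% of all genes, with a median of -4.20. The count was 4 lower without OST replicate 3 and 6 lower without GC replicate 1. Hba-a1 and Hbb-bs, an alpha and a beta globin of adult red cells, differed by -5.17 ± 0.60 and -4.54 ± 0.56, and Hbb-bs had 629, 1708 and 818 TPM in OST, against 41730, 23140 and 11570 TPM in GCs. Globin copies are nearly identical, so the share of each is uncertain, and the values varied widely within GCs. Leukocyte lists also had negative medians, with GC replicate 1 highest. The macrophage list had 0 of 16 called with a median of -1.08, or -0.13 with 1 higher and 2 lower without GC replicate 1, and its summed TPM was 176 to 277 in OST and 3264, 238 and 269 in GCs. Lyz2, lysozyme of myeloid cells, had 42.4, 52.6 and 43.8 TPM in OST, against 1482, 90.2 and 120 TPM in GCs. The neutrophil gene S100a8 had 6.68, 7.23 and 0 TPM in OST, against 430, 38.1 and 23.6 TPM in GCs. Without GC replicate 1 Lyz2 was called lower in OST (limma adjusted p = 0.0313) and S100a8 was not called. The interferon-stimulated list turned, with a median of -0.95 with all libraries and 0.36 without GC replicate 1, and Cxcl10 stood at 3.50, 8.85 and 2.54 TPM in OST and 96.8, 1.97 and 1.03 TPM in GCs.

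Of the cell cycle genes 1 of 16 was higher in OST and 0 were lower, against 11.4% and 0.308% of all genes. Their median was 0.28 and turned to -0.08 under median-ratio scaling. Mki67, the proliferation marker, had 35.4, 45.0 and 63.9 TPM in OST and 33.1, 40.7 and 47.1 TPM in GCs (0.22 ± 0.25, adjusted p = 0.533). The called member, Ccnd2, cyclin D2, had 55.2, 63.5 and 130 TPM in OST and 27.3, 30.4 and 33.6 TPM in GCs and was called in 2 of 6 leave-one-out fits (adjusted p up to 0.144). Of 14 immediate early and stress genes 0 were higher in OST and 1 was lower, and of 16 glycolysis genes 1 was higher and 1 lower. The shares of all genes were 11.4% higher and 0.308% lower. The immediate early gene was Fosb (7.61, 4.57 and 3.32 TPM in OST and 19.6, 11.6 and 11.3 TPM in GCs, adjusted p = 0.0414). Among glycolysis genes Pfkm was higher and Hk2 lower. Fosb, Pfkm and Hk2 were each called in 1 of 6 leave-one-out fits. In the adhesion list 6 of 12 were higher and 0 lower, against 11.4% and 0.308% of all genes. That list held Cdh11, the cadherin of mesenchymal cells, at 5.19, 6.47 and 4.47 TPM in OST and 0.270, 0.251 and 0.218 TPM in GCs.

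As a description, 480 genes were over 1 TPM in all 3 OST libraries and under 1 TPM in all 3 GC libraries, 49 genes had the opposite pattern and 10464 genes were over 1 TPM in all 6 libraries. Beside the lists, the 15 largest differences held Ccl21a, a lymphatic chemokine, with 189, 171 and 405 TPM in OST and 0.505, 2.48 and 4.23 TPM in GCs, whose near-identical copies make its own share uncertain, and Cxcl12, a chemokine of stromal cells, with 87.0, 121 and 27.7 TPM in OST and 1.11, 2.53 and 2.18 TPM in GCs. At the other end, beside the globins, stood Egr3, an early growth response factor, with 25.7, 26.8 and 9.85 TPM in OST and 59.6, 78.6 and 71.0 TPM in GCs. Its difference of -1.81 ± 0.38 was called (adjusted p = 0.0293), though not in the 3 fits that each left out a GC library (adjusted p up to 0.115).

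In the contralateral ovaries, which had received Sema3E, the same genes and test gave 4301 genes higher in OST and 2553 lower, 32.3% and 19.2% of the genes, with a median of 0.06. Of the 1513 genes higher in OST in IgG ovaries, 1417 were called higher there too, and of the 41 lower 36 were. The smooth muscle and fibroblast lists had 17 of 17 and 17 of 19 members higher, with medians of 3.17 and 3.02. The LH-response list had 16 of 24 lower and 2 higher with a median of -1.06, and the luteal list had 10 of 14 higher and 2 lower with a median of 0.58. The granulosa identity list had 6 of 20 higher and 11 lower with a median of -0.42. The oocyte list had 9 of 19 higher and 1 lower with a median of 0.32, and 13 of its differences were positive. Plxnd1 differed by 2.00 ± 0.13 in Sema3E ovaries and 1.65 ± 0.27 in IgG ovaries. For no gene did the tissue difference itself differ between IgG and Sema3E ovaries at an adjusted p under 0.05 (limma interaction over the 12 libraries), the lowest adjusted p being 0.170, although 2679 genes had an unadjusted p under 0.05. That fit held OST IgG replicate 3 and GC IgG replicate 1 and did not match libraries by mouse. It does not show that the tissue differences were equal. Slc5a3, a myo-inositol transporter among the genes with the smallest p, differed by 0.71 ± 0.15 in IgG ovaries and -0.18 ± 0.08 in Sema3E ovaries (interaction adjusted p = 0.170).

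**Figure D5:**
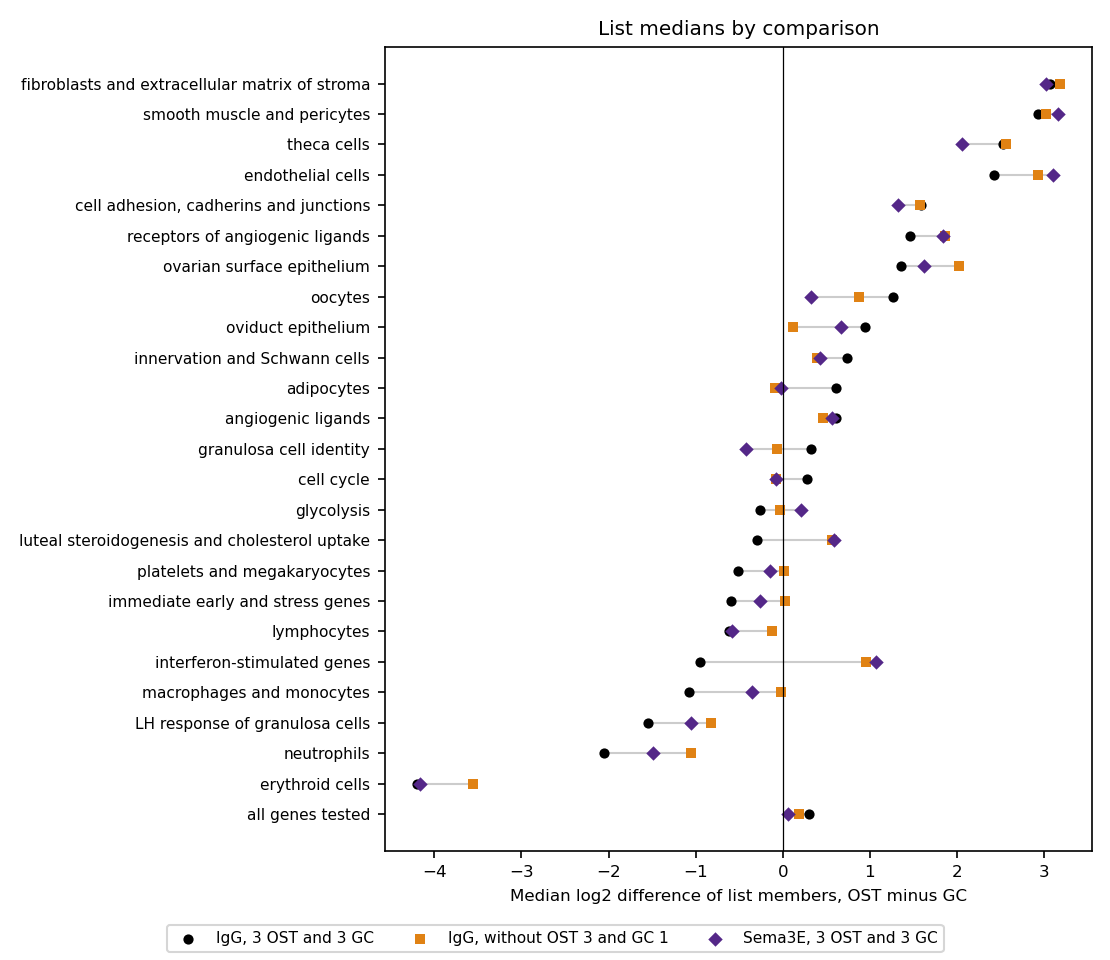
Median log2 difference of list members, OST minus GC, for 24 lists and for all genes tested, in IgG ovaries with all libraries (black circles), in IgG ovaries without OST replicate 3 and GC replicate 1 (orange squares) and in Sema3E ovaries (purple diamonds). Smooth muscle medians stay between 2.93 and 3.17, while the interferon median lies at -0.95 with all IgG libraries and at 0.96 without those 2 libraries and 1.07 in Sema3E ovaries.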

How the data were processed

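RNA of OST and GCs from wild-type mouse ovaries was sequenced as bulk libraries. The authors aligned reads to GRCm38 (mm10) with HISAT2 2.0.5, counted genes with featureCounts 1.5.0-p3 and deposited TPM (transcript abundance scaled to a fixed total) made with edgeR (version given as 1.3.3), in 1 table of 12 libraries. Of 277800 deposited TPM values 1515 were above 0 and under 0.0001, and library depth is unknown, so no count test was run and a value of 0 means only that a gene was listed at 0. Groups came from the sample titles.

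Protein-coding genes over 1 TPM in at least 1 of the 6 IgG libraries were fitted with limma 3.58.1 in R 4.3.3 on log2(TPM + 1), with a trended and robust variance and Benjamini-Hochberg adjustment, and called at an adjusted p under 0.05. The methods of the study used a count test, for which TPM is not suited. The procedure was tested on simulated data whose spreads came from the less variable genes, without divergent libraries or a shift of all genes. That test could not show how the procedure handles libraries such as OST replicate 3 and GC replicate 1. Lists were described by counts and medians without a test. The members, lists and tests were chosen with earlier results of these data known. Genes were named by a written rule (list members with the smallest adjusted p, defining markers, genes the study names, the largest non-overlapping differences, genes called without GC replicate 1 and without OST replicate 3, and the smallest interaction p). Genes that share a symbol were represented by the row with the higher mean. Coordinates are from GENCODE M21 and promoters from RefSeq (GRCm38.p6). Other pseudocounts, filters, scalings, weights, a replicate block and leave-one-out fits were tried. Some genes that the rule names are not reported here.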

Additional observations from a re-analysis of the deposited data

How the results depend on the processing

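The median-ratio scaling gave 754 genes higher and 195 lower in OST, leaving out globin and mitochondrial genes 881 and 117, library quality weights 8248 and 2320, a fit over all 12 libraries 4622 and 348, and leaving out GC replicate 1 and OST replicate 3 together 3366 and 558. With 1 IgG library left out at a time, 544 to 2163 genes were higher and 8 to 95 lower, and with 1 Sema3E library left out 3608 to 4502 were higher and 1594 to 2613 lower in Sema3E ovaries. The estimation of the weights stopped before it converged. It gave 25.3 to GC replicate 2 and 13.0 to OST replicate 2, against 0.079 to 0.848 for the other IgG libraries. The weighted fit thus rested mostly on replicate 2 of each tissue, and its differences and calls describe little beyond those libraries. The causes were not tested. Some differences that were not called with all libraries turned sign. With library weights they were -0.26 for Foxj1, -0.030 for Adipoq, 0.75 for Ereg, 0.041 for Star, 0.74 for Cyp11a1 and 1.64 for Cxcl10. Without GC replicate 1 and OST replicate 3 they were -0.27 for Foxj1, -0.021 for Adipoq, 0.95 for Ereg, 0.51 for Star, 1.22 for Cyp11a1, 1.44 for Cxcl10 and -0.13 for Mki67, which was -0.14 under median-ratio scaling and -0.059 without globin and mitochondrial genes. With 1 library left out at a time differences spanned -0.43 to 1.76 for Foxj1, -0.014 to 1.03 for Adipoq, -2.28 to 0.52 for Ereg, -2.83 to 0.63 for Star, -1.40 to 1.53 for Cyp11a1, -1.66 to 1.13 for Cxcl10, -0.0003 to 0.42 for Mki67 and -0.58 to 0.046 for Vegfa. Of the turned differences, Cyp11a1 was called without OST replicate 3 (adjusted p = 0.0412), Ereg and Cyp11a1 without GC replicate 1 and OST replicate 3 (0.0283 and 0.0367), and Ereg, Cyp11a1 and Cxcl10 with weights.

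With the replicate number as a block, 1421 genes were higher and 54 lower, including 1193 of the 1513 and 33 of the 41, and no interaction was called. Deviations of same-numbered OST and GC libraries correlated at 0.036, 0.060 and 0.152, and those of differently numbered ones at -0.155 to 0.125. These ranges overlap and cannot decide whether the numbers pair samples, so the main fit used no pairing. TPM gives no depth, so low values carry no counting interval.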

Other observations

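Families defined by the stem of the gene symbol, which were added after the results above had been seen, gave further groups. They are described by counts without a test, beside 11.4% of all genes called higher. Under median-ratio scaling 754 of all 13301 genes were called higher and 195 lower. Clustered protocadherins and their relatives, cell surface adhesion proteins, had 21 of 32 tested members higher in OST and 0 lower. In Sema3E ovaries 25 of 32 were higher and 3 lower, beside 32.3% and 19.2% of all genes there. In IgG ovaries their median log2 difference was 1.36, or 1.10 under median-ratio scaling. Pcdhb9, the member with the smallest adjusted p and therefore chosen after its values were seen, had 10.9, 9.29 and 10.8 TPM in OST and 0.207, 0.782 and 0.686 TPM in GCs, though members of this cluster are alike in sequence and their shares are uncertain. Hox genes, which mark position along the body axis, had 13 of 25 higher and 0 lower (median 0.96), or 4 higher under median-ratio scaling, led by Hoxa4 with 6.52, 8.79 and 5.33 TPM in OST and 0.202, 0.656 and 0.224 TPM in GCs. Collagens had 15 of 30 higher and 0 lower (median 1.68), and Sox genes 7 of 11 and 0 (median 1.76). Among Wnt ligands 4 of 9 were higher and 0 lower, and Wnt6 had 27.3, 22.3 and 21.3 TPM in OST and 1.08, 2.54 and 1.82 TPM in GCs. In the Notch family 4 of 9 were higher and 1 lower. Jag2, a Notch ligand, had 19.1, 18.9 and 18.7 TPM in OST and 4.69, 5.91 and 3.30 TPM in GCs, while Notch2, the lower one, had 9.64, 10.6 and 5.48 TPM in OST and 16.1, 21.4 and 16.3 TPM in GCs and was called in 1 of 6 leave-one-out fits.

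Cytosolic ribosomal protein genes had 34 of 78 higher in OST and 0 lower, all 78 with a positive difference and a median of 0.99. In Sema3E ovaries 76 of 78 were higher, beside 32.3% of all genes there. In IgG ovaries the median under median-ratio scaling was 0.62 and 2 of 78 were called higher, where 754 of all 13301 genes were. Rpl22l1 had 338, 360 and 452 TPM in OST and 118, 137 and 149 TPM in GCs. The 13 mitochondrially encoded genes all had a negative difference (median -0.27) and none was called. Under median-ratio scaling 2 of them were lower, where 195 of all 13301 genes were. Proteasome genes had 0 of 37 called and a median of 0.17 that was -0.19 under median-ratio scaling.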
